A study of Mus musculus with 3 samples.

Results

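CT26.WT cells, a mouse colon carcinoma line, were cultured with recombinant mouse S100a8 protein and set against a control culture of the same line. The comparison held 1 array of each, 2 of the 3 arrays of the series, and was chosen by the labelled agent and described across all named genes. Of 18193 genes with a probe set of a single symbol, 11138 were bright enough to compare. In all 3 cultures, the control included, cells were held in serum-free medium for 12 h. The S100a8 culture then received the protein at 4 µg/ml for 24 h. The control was labelled in conflicting ways, with bovine serum albumin in its title and normal saline in its description and in the series design, and no exposure time was recorded for it. The remaining culture received recombinant S100a9 at the same dose and for the same time, and its signals are printed beside the others. The line is not stated to carry any engineered allele, and each group was 1 culture of 1 line on 1 Affymetrix Mouse Genome 430 2.0 array. No test was therefore possible, and the spread between cultures is unknown.

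S100a8 is a small calcium-binding protein that neutrophils and monocytes hold in large amounts, mostly paired with S100a9, and release where tissue is inflamed. Outside the cell it is described as a danger signal that is sensed by Tlr4 with its partner Ly96, by the receptor Ager and by basigin. Such receptors can activate NF-kB, a family of transcription factors held in the cytoplasm by IkB proteins, whose targets include chemokines, cytokines, adhesion molecules and the brakes that end the response.

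Each value is a MAS5 signal on a linear scale, and signals are given throughout in the order S100a8, control, S100a9. A gene is represented by its brightest probe set. Signals under the floor, the median of all signals (76.0), were raised to the floor before the log2 ratio of S100a8 over control was taken. A fold with 1 array at the floor is a lower bound. Median signals were 78.6, 76.1 and 73.6, and the 18 hybridization spike-ins had a median log2 ratio of 0.02 (SD 0.04). The 24 poly-A spike-ins, added to the RNA before labelling, had a median of 0.12 (SD 0.12). The error that the arrays themselves show is the scatter between different probe sets of the same gene. Over 4948 genes with a second probe set above the floor, the SD of a single log2 ratio estimated this way was 0.20, with 0.24 among the dimmest pairs and 0.11 among the brightest. This error leaves out the difference between cultures.

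Few markers of the labelled tissue were detected: of 10 colon epithelial markers, 3 lay above the floor. Krt18, a simple-epithelium keratin, had signals of 1032, 1447 and 1236, Epcam 113, 101 and 85.5, and the intestinal factor gene Cdx2 122, 101 and 109. The junction cadherin gene Cdh1 (42.6, 39.7 and 40.4) and the keratin genes Krt8 and Krt19 lay below the floor. All 4 mesenchymal markers were bright, and Vim, the intermediate filament of mesenchymal cells, had 15811, 16033 and 15407. In a bulk sample, fewer cells of a type and less RNA per cell cannot be told apart.

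The sensors described for S100a8 were present in part, and Ly96 lay furthest from control among them. Tlr4 had signals of 365, 380 and 404, a log2 ratio of −0.06, and its second probe set was at 0.05. Ly96 had signals of 248, 456 and 280, a log2 ratio of −0.88 on its 1 probe set. Cd14, which hands bacterial lipid to that pair, had 1075, 1413 and 1418 and a log2 ratio of −0.39. The basigin gene Bsg was at −0.14, with signals of 1994, 2198 and 2228. Both probe sets of Ager lay below the floor on every array, as did the genes of the added proteins, S100a8 (14.7, 13.5 and 13.5) and S100a9 (38.5, 37.1 and 24.2). Over the 17 compared Toll-like receptors and adaptors the median log2 ratio was −0.06, with 11 lower and 6 higher. Of all compared genes, 47.5% were lower and 52.5% higher. Irak2, a kinase of the Toll-like receptor pathway, was at −0.49 and Ticam1, an adaptor of such receptors, at 0.33.

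Genes far from control lay mostly on the low side. Of the 11138 genes, 32 (0.287%) were lower by 2-fold or more and 5 (0.0449%) were higher by as much. At 1.5-fold, 213 (1.91%) were lower and 126 (1.13%) higher. Most of this was shared with S100a9. On the S100a9 array 29 of the 32 were also at least 1.5-fold below control, against 0.853% of all genes. Of the 5 higher genes, 3 were at least 1.5-fold above control there. Set against the S100a9 array itself, 5 of the 32 and 1 of the 5 lay at least 1.5-fold away in the same direction. Both comparisons use the same 1 control array and are not independent. The bulk of genes was balanced: 47.5% had a log2 ratio below 0 and 52.5% above, the median was 0.01, and the middle 50% lay between −0.13 and 0.16. The lowest were chemokine, NF-kB pathway, interferon-stimulated and matrix protease genes. Just inside the 2-fold size were Oasl1 (2.01-fold lower), Mlxip (−1.03) and Ptgds (−1.04), and just outside it Oasl2 (1.999-fold lower), Cd274 (−0.99) and Fubp1 (−0.99). On the other side Id3 (1.18), Klk10 (1.05) and 2610020C07Rik (1.01) were just inside and Sdc1 (0.96), Plb1 (0.96) and Gm2115 (0.93) just outside.

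**Figure D1:**
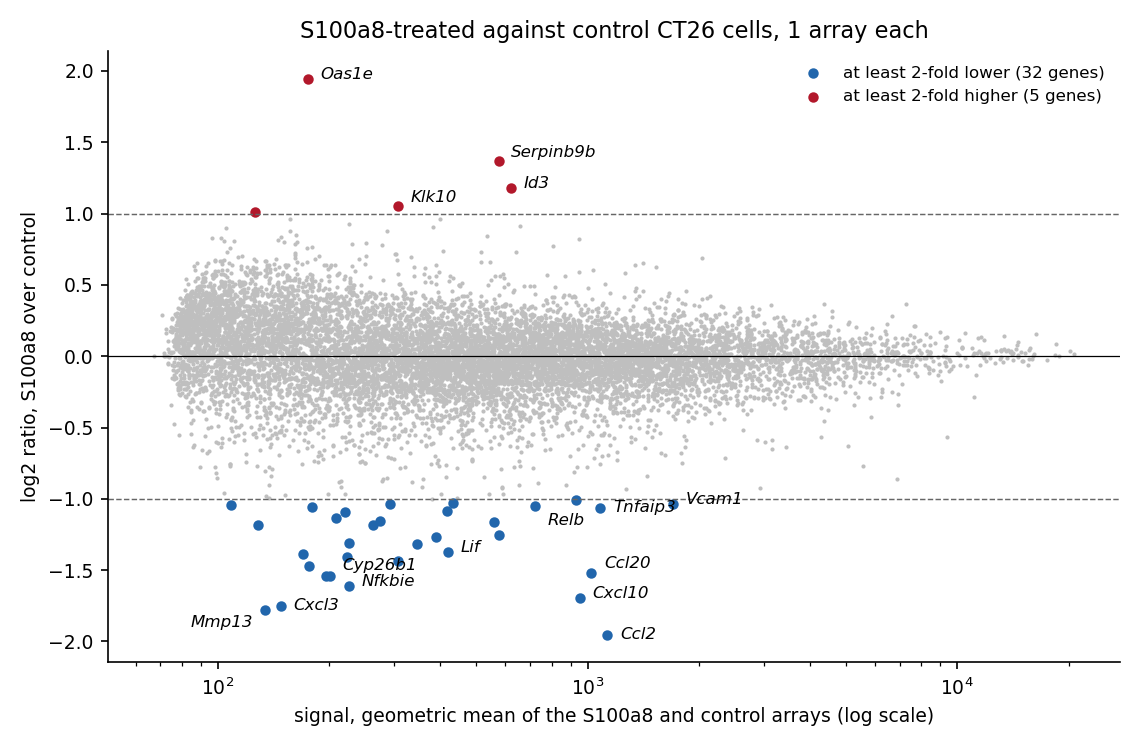
Each point is 1 of 11138 genes, with the geometric mean of its S100a8 and control signals on the x axis (log scale, no unit) and the log2 ratio of S100a8 over control on the y axis. Dashed lines mark 2-fold; the 32 genes at least 2-fold lower (blue) reach from dim to bright signals and down to Ccl2 at −1.95, and the 5 at least 2-fold higher (red) reach up to Oas1e at 1.95.

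Several chemokine genes were among the lowest ratios. Ccl2, which attracts monocytes, had signals of 576, 2227 and 813, a log2 ratio of −1.95. Ccl7, a neighbour of Ccl2 in function, had 151, 322 and 198 (−1.09). Ccl20, which attracts Ccr6-bearing lymphocytes and dendritic cells, had 605, 1733 and 690 (−1.52). In each of these the control array was highest and the S100a8 array lowest. The other CC chemokine genes did not share this: Ccl5 was at −0.08, and Ccl25, Ccl24, Ccl9, Ccl4 and Ccl28 lay between 0.15 and 0.58, mostly at signals near the floor. With 4 of 9 lower, against 47.5% of all genes, the list's median was therefore 0.15. It turned negative at a higher floor (−1.06) and with the mean of all probe sets (−0.03).

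Among CXC chemokines, 4 of 5 compared genes were at least 1.5-fold lower, against 1.91% of all genes, and the median was −0.89. The neutrophil attractant Cxcl3 had signals of 80.7, 271 and 109, a log2 ratio of −1.75. Cxcl10, which attracts Cxcr3-bearing T cells, had 530, 1715 and 604 (−1.69). The neutrophil attractant genes Cxcl5 (539, 996 and 473) and Cxcl1 (5104, 9268 and 5744) were at −0.89 and −0.86, and a second Cxcl1 probe set was at −0.72. For Cxcl5 the S100a9 array, not the S100a8 array, was lowest. Pf4, a platelet chemokine near the floor, was the exception at 0.36 (100, 77.9 and 76.8). Of the 16 CXC and CX3C genes on the array, the other 11 lay below the floor, and counting genes down to the 30th percentile moved the median to −0.24 and keeping all dim genes to 0.00.

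Among cytokine genes, 5 of 8 were lower, against 47.5% of all genes, and the median of −0.27 moved to −0.07 at the lower floor (30th percentile) and to 0.00 when all dim genes were kept. Csf1, the macrophage growth factor, had signals of 1080, 1932 and 1069, a log2 ratio of −0.84, with a second probe set at −0.71. Lif, an interleukin-6 family cytokine, had 260, 675 and 318 (−1.37), but its second probe set (121, 106 and 116) was at 0.19, and the mean of both was −0.59. Tnfsf9, the ligand of the T cell costimulator 4-1BB, was at −0.55. Kitl was at 0.28 and Il1rn, the interleukin-1 receptor antagonist, at 0.48 from a dim control signal of 85.6. Receptors as a list were level, with 12 of 21 lower, against 47.5% of all genes, and a median of −0.01. Il1rap, the shared accessory chain of interleukin-1 family receptors, was at −0.68 and Il1rl2, the interleukin-36 receptor, at −0.64, against Csf1r at 0.47 and Csf2ra at 0.50.

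In the list of NF-kB subunits and IkB proteins, which also holds Ikbkg of the kinase complex, most genes were below control. Of its 11 compared genes 10 had a ratio below 0 (47.5% of all genes) and 5 were at least 1.5-fold lower (1.91% of all genes). The median was −0.58. Nfkbie, the inhibitor IkB-epsilon, had signals of 129, 396 and 159, a log2 ratio of −1.61, and its second probe set was at −1.56. Nfkbia, the inhibitor IkB-alpha, had 4257, 7258 and 4709 (−0.77; second probe set −0.69). The noncanonical subunits Relb (500, 1035 and 598) and Nfkb2 (715, 1227 and 811) were at −1.05 and −0.78. On all 4 of these the control array was highest. Rel was at −0.77, Nfkbid at −0.57 and Rela, the main transactivating subunit, at −0.31. Nfkbib was at −0.58 with its second probe set at 0.35, and Ikbkg, the scaffold of the kinase that releases NF-kB, was at 0.16.

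Negative regulators of the pathway were on the same side, with 15 of 16 lower, 5 of them at least 1.5-fold, against 47.5% and 1.91% of all genes, and a median of −0.27. Tnfaip3, the ubiquitin editor A20, had signals of 749, 1566 and 769, a log2 ratio of −1.06 (second probe set −0.95). The adaptor gene Traf1 was at −0.98 (95.9, 189 and 109; second probe set −0.91). Both second probe sets had S100a8 signals under the floor (61.7 and 67.8), so their ratios are bounds. Zc3h12a, an RNase that cuts inflammatory mRNAs, was at −0.88 and Zfp36, which directs the decay of such mRNAs, at −0.70. The A20-binding protein genes Tnip1 and Tnip2 were at −0.58 and −0.48. Birc3, an inhibitor of apoptosis that acts in this pathway, had probe sets that disagreed (−1.16 and 0.54). Cyld (−0.09), Otud7b (−0.07) and Rnf11 (0.12) were near control.

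**Figure D2:**
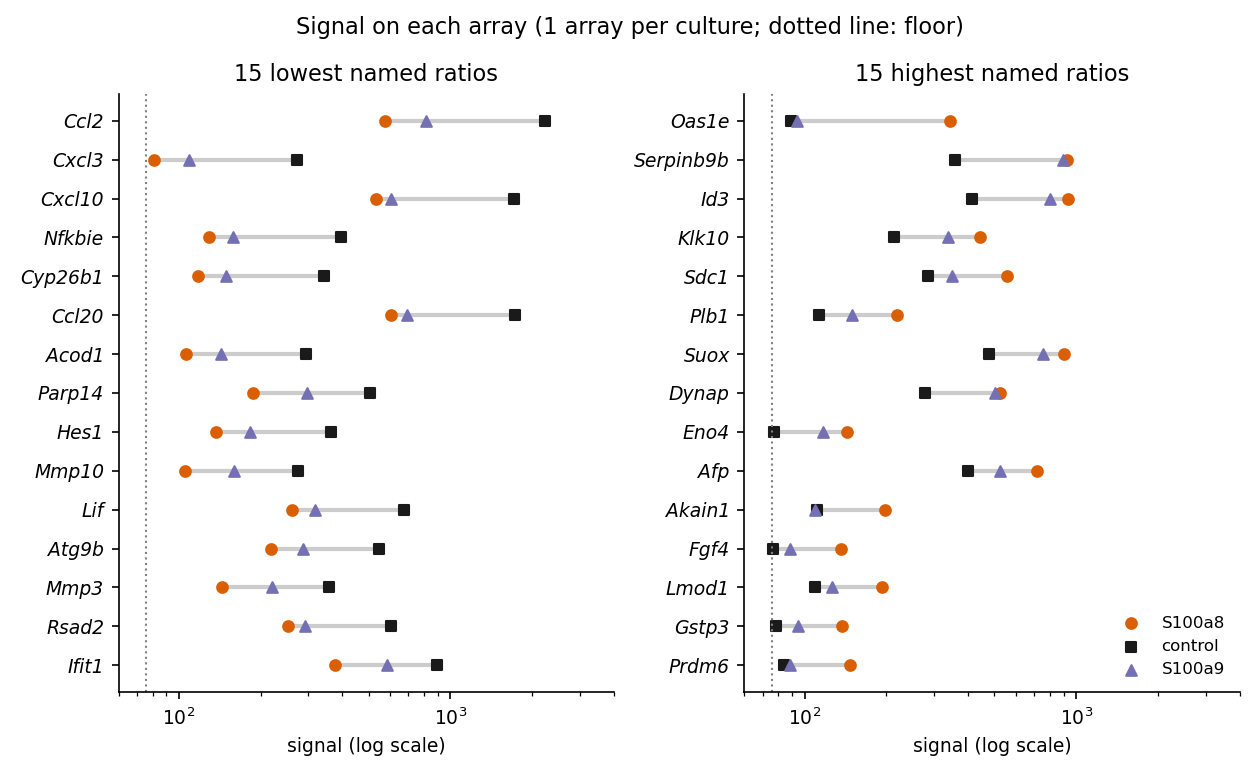
Signals (x axis, log scale, no unit) of the 15 genes with the lowest and the 15 with the highest named ratios on the S100a8 (circle), control (square) and S100a9 (triangle) arrays, 1 array each, with the floor of 76.0 dotted. In the left panel the control array is highest for each gene and the S100a8 array lowest. In the right panel the S100a8 array is highest for each gene, and the control signals of Oas1e, Eno4, Fgf4, Gstp3 and Prdm6 lie near the floor.

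Effector genes of inflammation outside the chemokines divided. Vcam1, an endothelial-type adhesion molecule for leukocytes, had signals of 1189, 2442 and 1288, a log2 ratio of −1.04, and its other probe sets lay at −1.16 and −0.65. Acod1, which makes itaconate in activated macrophages, had 106, 293 and 143 (−1.47). Ptgds, a prostaglandin D synthase, had 204, 419 and 241 (−1.04), with a second probe set at −1.97. That value is a bound, as its S100a8 signal (67.0) lay under the floor. For each of these 3 genes the control array was highest. Casp4 (−0.76), the acute-phase gene Saa3 (−0.68) and the complement protease gene C1s1 (−0.65) were at least 1.5-fold lower, whereas the iron-carrier gene Lcn2 had 702, 502 and 700 (0.48). Ptgs2, the inducible cyclooxygenase, was bright and close to control at 3502, 3778 and 3165 (−0.11). The kinin receptor gene Bdkrb2 had probe sets at −1.54 and 0.55. F11r, a junction adhesion molecule, was at 0.71 (206, 126 and 147).

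Promoters are shown for the 4 lowest and 2 highest named genes above the floor on both arrays that have an entry among RefSeq promoters of GRCm38.p6, since NF-kB and interferon response elements are known in several genes at the low end. The 250 bases before the start are printed 5′ to 3′ on the strand of the gene, and capitals mark a match to any searched motif. Ccl2 and Oas1e were not among the entries matched.
Cxcl3 (chr5:90785851-90786100, plus strand): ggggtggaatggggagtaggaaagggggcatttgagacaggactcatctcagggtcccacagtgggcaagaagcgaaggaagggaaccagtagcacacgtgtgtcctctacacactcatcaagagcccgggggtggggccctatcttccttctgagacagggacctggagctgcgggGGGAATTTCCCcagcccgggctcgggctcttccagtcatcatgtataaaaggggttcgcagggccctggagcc
Cxcl10 (chr5:92348890-92349139, minus strand): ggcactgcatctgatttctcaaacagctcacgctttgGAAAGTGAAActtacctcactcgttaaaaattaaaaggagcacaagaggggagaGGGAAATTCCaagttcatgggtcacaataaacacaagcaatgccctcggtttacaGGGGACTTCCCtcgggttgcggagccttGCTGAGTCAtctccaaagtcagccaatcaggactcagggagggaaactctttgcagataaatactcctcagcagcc
Nfkbie (chr17:45555450-45555699, plus strand): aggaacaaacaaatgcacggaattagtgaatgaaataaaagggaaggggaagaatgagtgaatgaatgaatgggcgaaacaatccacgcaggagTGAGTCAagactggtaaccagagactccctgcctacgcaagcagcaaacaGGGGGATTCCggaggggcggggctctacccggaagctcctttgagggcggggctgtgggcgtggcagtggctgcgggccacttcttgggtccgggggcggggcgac
Cyp26b1 (chr6:84593811-84594060, minus strand): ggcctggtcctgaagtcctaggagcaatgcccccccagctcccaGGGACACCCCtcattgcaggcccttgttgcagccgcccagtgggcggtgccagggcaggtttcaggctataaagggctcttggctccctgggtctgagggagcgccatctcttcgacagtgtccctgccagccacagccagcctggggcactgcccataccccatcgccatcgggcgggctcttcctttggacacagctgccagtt
Serpinb9b (chr13:33027164-33027413, plus strand): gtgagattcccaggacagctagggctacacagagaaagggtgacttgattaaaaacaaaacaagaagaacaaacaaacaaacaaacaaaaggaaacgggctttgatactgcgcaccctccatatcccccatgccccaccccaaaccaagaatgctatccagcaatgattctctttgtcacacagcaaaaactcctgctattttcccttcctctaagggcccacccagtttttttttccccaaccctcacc
Id3 (chr4:136143572-136143821, plus strand): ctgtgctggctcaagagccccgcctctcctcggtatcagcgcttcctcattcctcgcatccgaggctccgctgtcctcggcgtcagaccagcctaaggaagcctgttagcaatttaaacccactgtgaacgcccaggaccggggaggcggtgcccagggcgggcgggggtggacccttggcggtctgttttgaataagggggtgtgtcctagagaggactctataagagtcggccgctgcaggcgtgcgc

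In Cxcl3 the capitals are 2 overlapping matches to the NF-kB consensus, beginning 73 and 72 bases before the start. In Cxcl10 they are, in order, an interferon-stimulated response element (ISRE), 3 NF-kB matches of which 2 overlap, and an AP-1 match that lies inside an NRF2-site match. Nfkbie holds an AP-1 match 156 bases before the start and an NF-kB match 106 bases before it, and Cyp26b1 an NF-kB match 206 bases before it. Serpinb9b and Id3 held none of the searched letters in this window. The search used both strands of 300 bases, 250 before to 50 after the start, and took the NF-kB consensus by its name, the ISRE as TTTC, any 2 bases and TTTC, GAS as TTCNNNGAA, AP-1 as TGANTCA, a sterol site as TCACNCCAC, an NRF2 site as TGACNNNGC and a BMP SMAD site as TGGCGCC. A match is a description of the letters only.

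Of all 9066 compared genes with such a window, 909 (10%) held an NF-kB match, 454 (5.01%) an AP-1 match and 270 (2.98%) an ISRE. Among the genes at least 2-fold lower, 24 of 32 had a window, and 10 (41.7%) held an NF-kB match. These were Ccl20, Cxcl10, Cxcl3, Cyp26b1, Fos, Lif, Nfkbie, Oasl1, Ptgds and Tnfaip3. AP-1 matches lay in 9 (37.5%), the matrix protease genes Mmp3, Mmp10 and Mmp13 among them, and an ISRE in 5 (20.8%), namely Cxcl10, Ddx60, Ifit1, Mmp13 and Rsad2. Over the 172 windows of genes at least 1.5-fold lower the shares were 18% for NF-kB, 13.4% for AP-1 and 12.2% for the ISRE. Over the 90 windows of genes at least 1.5-fold higher they were 11.1%, 11.1% and 4.44%. NRF2 sites lay in 15.1% of the lower, 18.9% of the higher and 14.8% of all windows.

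**Figure D3:**
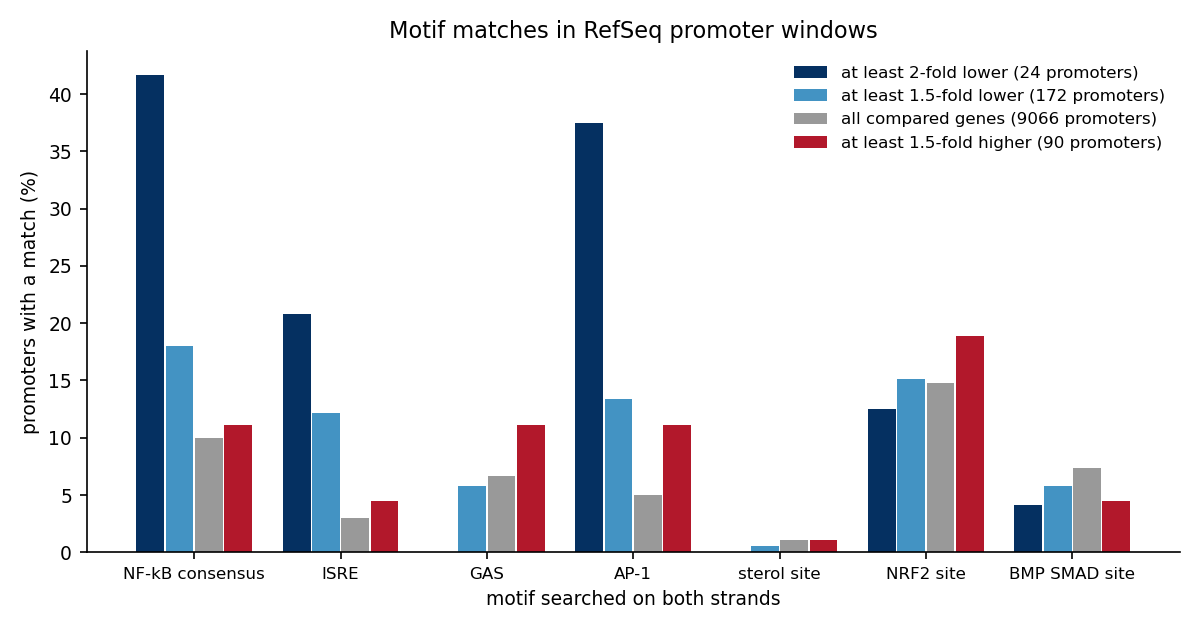
Bars give the percentage of RefSeq promoter windows with at least 1 match to each motif (x axis), for genes at least 2-fold lower (24 windows), at least 1.5-fold lower (172), all compared genes (9066) and genes at least 1.5-fold higher (90). The share with an NF-kB match is 41.7% in the 2-fold lower group and 10% over all genes; the groups are small and no test was made.

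Interferon-stimulated genes formed another low group. Of 27 antiviral effectors 26 were lower, 9 at least 1.5-fold, against 47.5% and 1.91% of all genes, with a median of −0.41. Rsad2, the antiviral enzyme viperin, had signals of 251, 604 and 292, a log2 ratio of −1.26, and its other probe sets were at −1.27 and −0.83. The −0.83 is a bound, with an S100a8 signal of 59.0 under the floor. Ifit1, which binds foreign RNA ends, had 375, 892 and 586 (−1.25). Ddx60 had 124, 259 and 186 (−1.06; second probe set −0.79) and Ifit3 109, 214 and 157 (−0.97). On the S100a8 array all 4 were lowest, and the S100a9 signal lay between that and control. The RNA sensors Ifih1 and Ddx58 were at −0.72 and −0.67, while Ifit2 (−0.06), Samhd1 (−0.01) and Ifi27 (−0.01) were level. Isg20, an exonuclease, was the 1 member above control (0.13).

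All 7 compared interferon-inducible GTPases, which attack vacuoles that hold pathogens, were lower, 6 of them at least 1.5-fold (1.91% of all genes), with a median of −0.79 that lay between −0.84 and −0.75 under the alternatives. Gbp3 had signals of 426, 805 and 544 (−0.92) and Igtp 392, 704 and 548 (−0.85). Gbp2 and Gbp7 were both at −0.79, and their second probe sets lay at −0.84 and −0.83. Gbp6, at the floor on the S100a8 array (75.2, 156 and 107), was at least 2.06-fold lower. The smallest difference was that of Irgm1 at −0.57.

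In the OAS family, which makes the activator of RNase L, 6 of 8 genes were lower, against 47.5% of all genes. Oasl1 had signals of 656, 1317 and 785, and Oasl2 had 269, 539 and 406. Oas1b was at −0.63, Oas1a at −0.36 and Oas3 at 0.17. Oas1e lay far on the other side, with 343, 89.1 and 93.3, a log2 ratio of 1.95 on a single probe set. Its S100a8 signal alone was high, and the other arrays lay just above the floor. Members of this family are close in sequence, so which gene's RNA that probe set read is uncertain.

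Other parts of the interferon system were lower by less. The counts of lower genes in these lists stand beside 47.5% of all genes. Of 14 PARP family genes 13 were lower (median −0.18), with Parp14, an ADP-ribosyltransferase, at 187, 507 and 295 (−1.44) and its partner gene Dtx3l at −0.72. Among receptors, STATs and IRFs 15 of 20 were lower (median −0.21). Usp18, which removes ISG15 and damps receptor signalling, had 423, 827 and 587 (−0.97). Stat2 was at −0.84, the interferon-gamma receptor chain Ifngr2 at −0.76, Tyk2 at −0.71 and Irf1 at −0.56, while Jak1 (0.04), Stat3 (0.11) and the feedback inhibitor Socs3 (0.02) were level. The MHC class I pathway had 12 of 17 lower and a median of −0.19, with no member at 1.5-fold. H2-K1, a class I heavy chain, had 5026, 6765 and 5503 (−0.43), and the peptide transporter genes Tap1 and Tap2 were at −0.43 and −0.42, against B2m at 0.01. Cd274, the checkpoint ligand PD-L1, had 97.2, 194 and 114 (−0.99), and Cd80 was at −0.50.

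**Figure D4:**
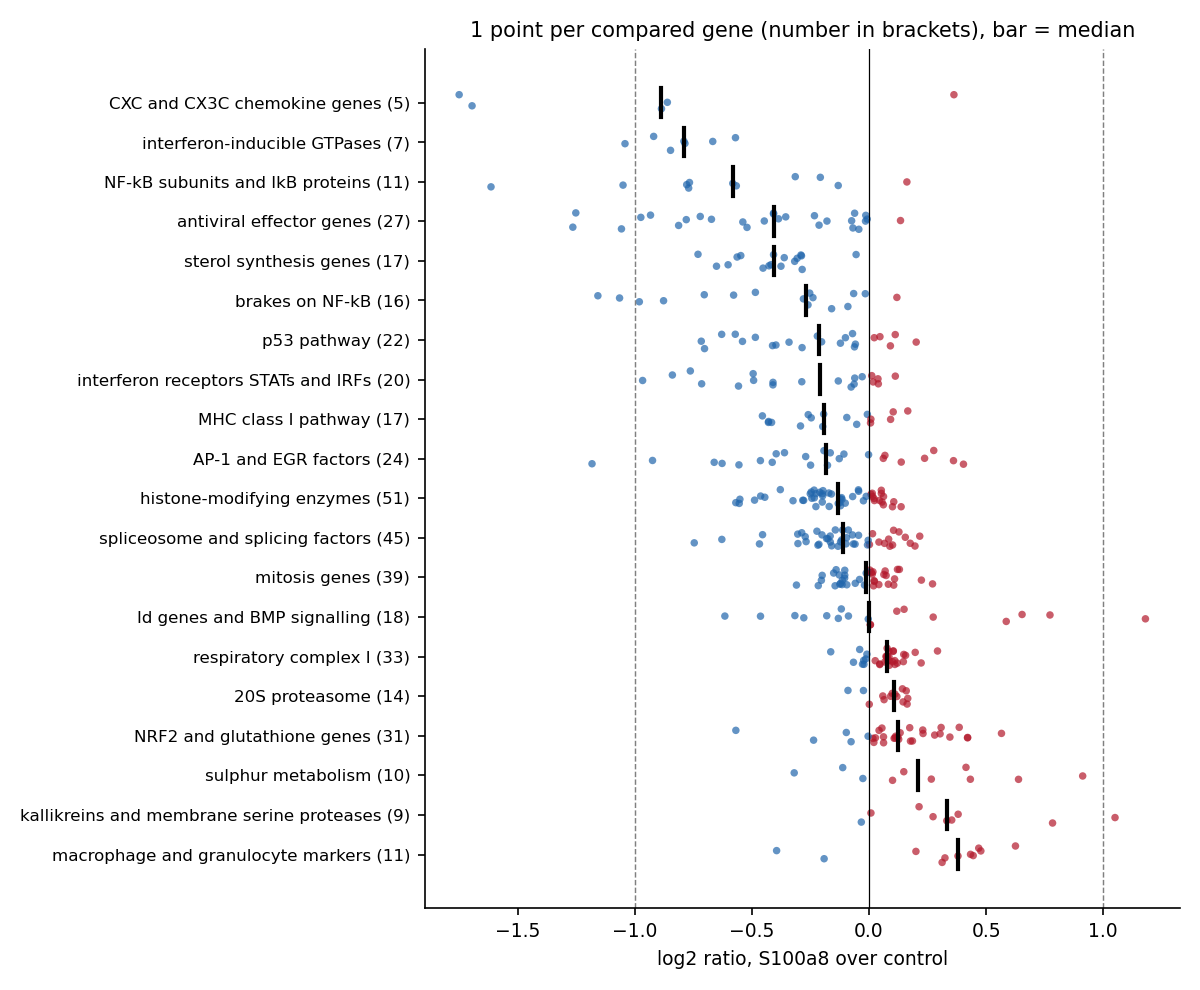
Each point is 1 compared gene of a list at its log2 ratio of S100a8 over control (x axis), blue below and red above 0, with the list's median as a black bar and dashed lines at 2-fold. Medians run from −0.89 for CXC chemokines to 0.38 for macrophage and granulocyte markers, and all 17 sterol synthesis genes and all 7 interferon-inducible GTPases lie below 0.

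Immediate-early and growth factor signalling genes differed gene by gene. Of 24 AP-1 and EGR factors 17 were lower (median −0.18), against 47.5% of all genes. Fos had signals of 85.2, 193 and 136 (−1.18) and Egr1 2132, 4044 and 2567 (−0.92), whereas Nr4a3 was at 0.40 and Klf2 at 0.36. Inhibitors that feed back on ERK were within 1.5-fold of control, from Spred3 at −0.45 to Spry2 at 0.31. The EGF receptor ligand genes Ereg (1224, 1817 and 1180) and Hbegf (526, 707 and 556) were at −0.57 and −0.43, and Tgfa was at 0.27. The PDGF system split: the receptor gene Pdgfrb had 426, 808 and 476 (−0.92; second probe set −1.03), while the ligand gene Pdgfc had 473, 320 and 521 (0.57; second probe set 0.56). Pdgfra was at −0.69 with a second probe set at 0.23.

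Within BMP signalling the Id genes, which encode inhibitors of helix-loop-helix transcription factors, stood apart from most of the list. Id3 had signals of 934, 412 and 802 (1.18), Id1 1055, 618 and 918 (0.77) and Id2 1550, 1033 and 1213 (0.59; second probe set 0.37). In each the control array was lowest. Hamp2, a dim member of the same list at the floor in the control (120, 74.2 and 69.7), was at least 1.57-fold higher. The ligand gene Bmp2 was at −0.62 and Bmp1 at −0.46, and the transducers Smad1 and Smad5 were at 0.12 and 0.01, so that the median of the 18 genes was 0.00. In the TGF-beta and activin list 14 of 23 were lower, against 47.5% of all genes. The low side was led by Inhba, an activin subunit, at 388, 759 and 455 (−0.97), and by Smad3 at −0.60. Ltbp1 was at 0.40 and Inhbb at 0.49.

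Notch, Wnt, retinoid and clock genes each held a few genes far from control. Hes1, a repressor that Notch induces, had signals of 137, 363 and 183 (−1.41), while Notch1 was at −0.46 and Dlk2 at 0.77 (second probe set 0.61). Cyp26b1, which degrades retinoic acid, had 118, 342 and 149 (−1.54). The retinoid reductase gene Dhrs3 was at −0.65 and the receptor gene Rxra at 0.45. In the Wnt list Wnt7b was at 0.71 (240, 147 and 158) and the feedback gene Axin2 at 0.55, against Wnt10a at −0.61. Ciart and Cry2, repressors of the clock, were at −0.73 and −0.62 and Cry1 at 0.42.

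Most p53-linked genes lay below control. Of 22 p53 pathway genes 17 were lower (median −0.21), against 47.5% of all genes. Among them were Ddit4, an mTORC1 inhibitor, at 1841, 3023 and 1942 (−0.72), Gadd45b at −0.70 (second probe set −0.72) and the antiproliferative gene Btg2 at −0.63 (second probe set −0.59). Mdm2, the ubiquitin ligase of p53, was at −0.40 and Cdkn1a at −0.29, whereas Ei24 was at 0.20. The BH3-only death gene Bcl2l11 had 639, 1193 and 786, a log2 ratio of −0.90 on both of its probe sets, and Bik, of the same class, was at 0.56 (second probe set 0.53). Klf9, a glucocorticoid-responsive factor, had 2519, 3950 and 3213 (−0.65). Ppp1r15a, which restarts translation after stress, was at −0.63, and heat shock genes had a median of 0.00 with no member at 1.5-fold.

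All 17 compared sterol synthesis genes were lower on their brightest probe sets, with a median of −0.41, against 47.5% of all genes, though Mvk was at 0.02 with the mean of its probe sets. Lss, lanosterol synthase, had signals of 935, 1550 and 1087 (−0.73; second probe set −0.52) and Pmvk 633, 994 and 796 (−0.65). The reductase gene Tm7sf2 was at −0.60 and the others lay between −0.56 for Hsd17b7 and −0.05 for Sqle. Genes that import, export or sense sterol had a median of −0.14 (10 of 15 lower), with Srebf2, the transcription factor of the pathway, at −0.45 and Insig1 at −0.34, and the exporter gene Abcg1 at 0.32. In fatty acid synthesis, Acss2, which makes cytosolic acetyl-CoA, had 305, 519 and 398 (−0.77; second probe set −0.84), and the phosphatidate phosphatase gene Lpin1 504, 858 and 562 (−0.77; second probe set −0.80). The remaining 22 genes of that list were within 1.5-fold and its median was −0.05.

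Several metabolic lists had medians above 0, those of redox, respiration and sulphur handling among them. Metal-binding and zinc transport genes were at 0.08 (14 of 16 higher) and pentose phosphate and nucleotide synthesis genes at 0.04 (17 of 25 higher). Glycolysis genes were at 0.03 and TCA cycle genes at 0.01. Of 31 NRF2 and glutathione genes 26 were higher (median 0.12), with Srxn1, sulfiredoxin, at 1056, 714 and 907 (0.57), Osgin1 at 0.42 and the biliverdin reductase gene Blvrb at 0.42. Sqstm1, an autophagy receptor and itself an NRF2 target, went the other way at 3517, 5214 and 3611 (−0.57). Complex I had 25 of 33 higher and a median of 0.08, the 20S proteasome 12 of 14 and 0.11, complex III 8 of 10 and 0.07, and complex IV 10 of 17 and 0.03, against 52.5% of all genes. In sulphur metabolism 7 of 10 were higher (median 0.21), led by Suox, sulphite oxidase, at 900, 478 and 753 (0.91) and Sqor, which oxidises sulphide, at 1680, 1079 and 1723 (0.64). Csad was at −0.32.

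Housekeeping and cell cycle lists stayed close to control. Ribosomal proteins of the large subunit had a median of 0.02 and of the small subunit −0.01, mitosis genes −0.01 and DNA replication genes 0.02. Of these 127 genes 0 reached 1.5-fold, but few genes did in general. Over all genes 1.91% were lower and 1.13% higher by that size, and of the 2785 brightest genes 24 were lower and 6 higher. Mki67, a marker of cycling cells, was at −0.31 (1922, 2382 and 1989), and the cyclin gene Ccnd1 at 0.36 (4944, 3842 and 4082). Below control were 32 of 45 splicing genes (median −0.11) and 37 of 51 histone-modifying enzymes (median −0.13), against 47.5% of all genes, whereas 14 of 28 hnRNP and RNA-binding genes were (median −0.01). The splicing kinase genes Clk1 (1393, 2336 and 1512) and Clk4 (408, 630 and 516) were at −0.75 and −0.63. The nuclear noncoding RNA Malat1 had 7694, 11390 and 7138 (−0.57), and a second probe set lay at −0.58.

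Matrix genes held both low proteases and low structural genes. Mmp13, a collagenase, had signals of 69.3, 261 and 105, and was at least 3.44-fold lower. The stromelysin genes Mmp10 (105, 275 and 160) and Mmp3 (144, 356 and 220) were at −1.39 and −1.31. Other metalloproteinases did not share this, with Mmp14 at 0.09, Mmp9 at 0.58 and Mmp16 at 0.73, the latter from dim control signals, and the inhibitor gene Timp1 at 0.35 (2595, 2032 and 2673). The small proteoglycan genes Ogn (372, 835 and 401) and Dcn (157, 296 and 243) were at −1.17 and −0.92, and a second Ogn probe set lay at −1.48. Col6a1 (158, 309 and 190) was at −0.97 and Col5a1 (856, 1393 and 900) at −0.70 on both of its probe sets. Over 16 collagens the median was −0.13, and the bright Col1a2 was at −0.02.

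Further genes at least 2-fold lower belonged to none of these groups. The noncoding RNA Fendrr had signals of 286, 608 and 316 (−1.09) and Mlxip, a glucose-responsive transcription factor, 304, 619 and 327 (−1.03). Zfp950 had 141, 310 and 161 (−1.14). Atg9b, of the autophagy lipid scramblase family, had 219, 546 and 287 (−1.32), but its second probe set was at 0.05. With the mean of all probe sets Atg9b was at −0.63 and Zfp950 at −0.38. Genes at the floor on the S100a8 array included the homeobox gene Dlx2, at least 1.95-fold lower (73.2, 148 and 91.7), Ovgp1, at least 1.80-fold, Ttll3, at least 1.76-fold, Ccdc25, at least 1.72-fold, Pcdhb21, at least 1.71-fold, and Phxr4, at least 1.60-fold.

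Genes on the high side were fewer and dimmer. Serpinb9b, of the clade B serine protease inhibitors, had signals of 923, 358 and 896 (1.37), and Serpinb9 390, 237 and 357 (0.72; second probe set 0.14). Klk10, a kallikrein-related protease, had 443, 214 and 337 (1.05). The control array was lowest for all 3. Sdc1, the proteoglycan syndecan-1, had 557, 285 and 349 (0.96), and its 4 probe sets ran from 0.45 to 0.96. The fetal plasma protein gene Afp had 715, 399 and 525 (0.84), with 4 probe sets between 0.36 and 0.89. Htra1, a secreted serine protease, had 212, 123 and 204 (0.78; second probe set 0.68). Ranked by the smaller ratio of all their probe sets above the floor, the first genes after Htra1 were Dlk2 (235, 138 and 242; 0.77 and 0.61), Dclk2 (0.57 and 0.70), Mep1a (0.56 and 0.64), Pdgfc, Sbsn (0.64 and 0.55), Bik, Slc38a4 (0.50 and 0.53), Amigo2 (0.49 and 0.52) and Cldn9 (0.62 and 0.48).

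Each of the rest of the 20 highest named ratios had 1 probe set above the floor, apart from Pnmt (331, 191 and 239; 0.80 and 0.34). Some of these genes have further, dimmer probe sets, and with the mean of all probe sets Plb1 was at 0.24, Fgf4 at 0.21, Tesmin at 0.20, Eno4 at 0.30, Pltp at 0.39 and Akain1 at 0.50. Plb1, a phospholipase, had signals of 219, 112 and 149 (0.96 on its brightest probe set). Dynap had 522, 278 and 504 (0.91). Eno4 (144, 76.9 and 117), Fgf4 (136, 76.7 and 88.0), Gstp3 (138, 78.6 and 94.7) and Prdm6 (146, 83.6 and 88.6) lay between 0.81 and 0.90 with control signals near the floor. As a group, the dimmest compared genes leaned upward on the S100a8 array. Akain1 was at 0.83, Lmod1 at 0.81, and Nutm1 and Tesmin at 0.80. Pltp, the phospholipid transfer protein gene, had 303, 176 and 151 (0.79). Of genes at the floor in the control, Kcnab3, which encodes part of a potassium channel, was higher by at least 1.78-fold (135, 68.6 and 112). Hamp2 and Foxp2 were each at least 1.57-fold higher, Tcam1 at least 1.55-fold, Cubn at least 1.52-fold, Cmah at least 1.51-fold, Sfrp1 at least 1.49-fold and Cpne7 at least 1.47-fold.

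Further probe sets of the same gene give a second reading of its RNA on each array. Of the 213 genes at least 1.5-fold lower, 84 had a second probe set above the floor, which lay below 0 in 71 and was itself at least 1.5-fold lower in 35. Of the 126 higher, 31 had one, which lay above 0 in 26 and was at least 1.5-fold higher in 4. The median log2 ratio was −0.73 on the brightest and −0.52 on the second probe set for the lower genes, and 0.67 and 0.26 for the higher. Of the 32 genes at least 2-fold lower, 11 had a second probe set. It was at least 1.5-fold lower in 7 of them (Nfkbie, Ogn, Ptgds, Tnfaip3, Rsad2, Ddx60 and Vcam1), and above 0 in Lif, Atg9b, Bdkrb2 and Birc3. None of the 5 genes at least 2-fold higher had one. Fubp1, with probe sets at −0.99, −0.88, −0.45 and 0.43, was also split. Probe sets of 1 gene share their RNA and are no replicates of the culture.

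**Figure D5:**
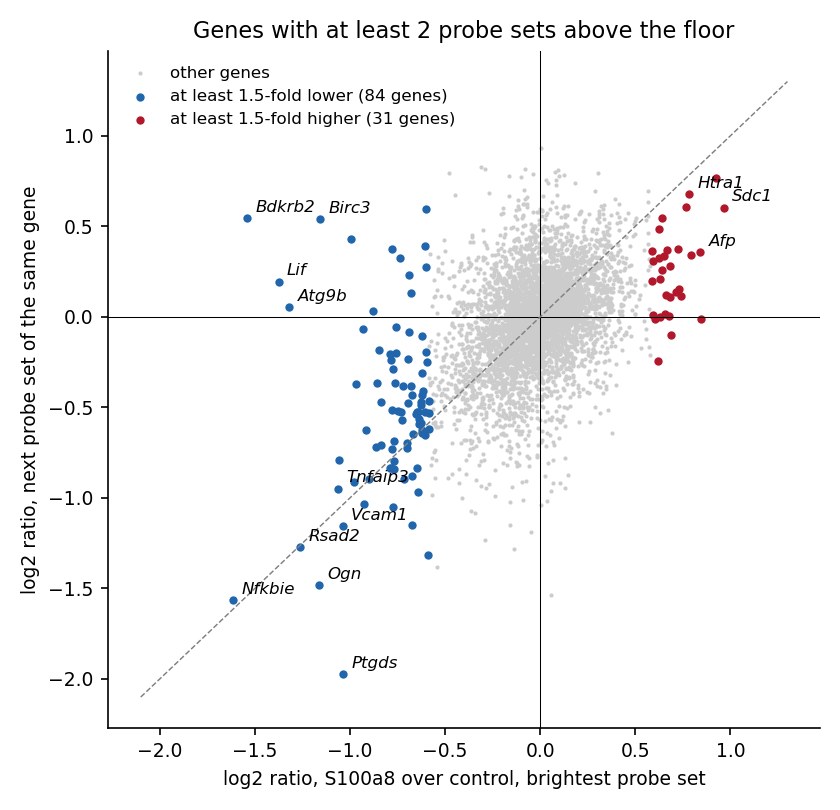
For genes with at least 2 probe sets above the floor, the log2 ratio of S100a8 over control on the brightest probe set (x axis) is set against that on the next (y axis), with the line of equality dashed. Nfkbie, Rsad2, Tnfaip3 and Vcam1 lie near the line, Lif, Atg9b, Birc3 and Bdkrb2 lie above 0 on the y axis, and most of the 31 genes at least 1.5-fold higher lie below the line.

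The dimmest compared genes leaned upward on the S100a8 array. Among the 2785 dimmest genes the median of the log2 ratio was 0.14, and in the next 3 groups of that size, in order of brightness, −0.02, −0.02 and −0.005. Not all dim probe sets shared this. In the same brightness range, 3434 further probe sets of named genes had a median of 0.003. There, 127 with several symbols were at 0.08 and 1625 not in the platform annotation at −0.01. The dimmest group held 80 of the 126 genes at least 1.5-fold higher but 55 of the 213 lower. Of 71 olfactory and vomeronasal receptor genes, taken as likely silent here, 9 were above the floor with S100a8 and 5 in the control. Marker lists of immune, endothelial, and neuron and muscle cells, which a pure line should lack, also had medians above 0. The median signals of these lists lay between 95.3 and 150, and the dimmest group reached up to a mean signal of 182. Of 24 macrophage and granulocyte markers 11 were compared and 9 were higher, against 52.5% of all genes. Their median was 0.38, or 0.23 after centring by brightness, and the summed signals were 3627, 3407 and 3695. Some were brighter than the dimmest group: Cd68 had 422, 273 and 396 (0.63) and Cx3cr1 305, 224 and 217 (0.45). The brightest, Cd14, was lower at 1075, 1413 and 1418 (−0.39), as was Ncf4 (−0.19). The defining markers Ptprc, Adgre1 and Itgam lay below the floor on every array. Lymphoid, endothelial, and neuron and muscle markers had medians of 0.25, 0.27 and 0.15. Their part in the high genes was not tested.

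Fibroblast markers, some of which CT26 cells express brightly, had 6 of 7 lower (median −0.28), against 47.5% of all genes. Their summed signals were 13106, 13853 and 14227. The markers Fap, Postn and Thy1 lay below the floor. Of the lists of identity, intestinal genes had 7 of 8 higher at dim signals, against 52.5% of all genes. Their median was 0.27, and Tff1, a mucosal peptide, had 481, 387 and 346. Epithelial junction genes had a median of 0.13 and Hox genes of 0.11, and both turned negative after centring by brightness, at −0.02 and −0.08. Grhl2, an epithelial transcription factor, was at 0.50 (276, 195 and 190; second probe set 0.46), and the mesenchymal genes Twist1, Vim and Cdh2 lay between −0.06 and −0.02.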

How the data were processed

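Total RNA of 3 CT26.WT cultures, 1 array each, was extracted with Trizol and 1 µg was labelled with biotin, per the labels' protocols. The deposited values are probe set intensity signals on a linear scale, which the authors computed with MAS5, per the submitters' processing notes; no version or scaling target was found in these sources. MAS5 subtracts the mismatch signal, so dim values are noisy, and its scaling removes differences in total RNA.

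Of 45037 probe sets that are no AFFX controls, 34945 had 1 symbol in the platform annotation, which can be old, 932 had several and 9160 were unlisted. Of the named ones 34741 matched a RefSeq table of GRCm38.p6 by Entrez number. Signals below the floor (50th percentile) were raised to it before log2. The probe set with the highest average stood for its gene, which was compared where this average exceeded the floor. Ratios are S100a8 over control, with 2-fold and 1.5-fold as descriptive sizes and no test. Python 3.11.15, numpy 2.4.6, pandas 2.3.3 and matplotlib 3.10.9 were used, and the functions were tested on simulated data.

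The alternatives were centring on the median, quantile normalization, a floor at the 30th or the 65th percentile, log2(signal + 1) without a floor, keeping all dim genes, averaging a gene's probe sets, preferring probe sets without an _x_at or _s_at ending, the 1.5-fold size, and centring in 20 bins of brightness.

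Named genes were the 30 lowest and 20 highest ratios above the floor on both arrays, 8 in each direction with an array at the floor, 10 in each direction by the smaller ratio of at least 2 probe sets, the 3 genes on each side of 2-fold, up to 8 members of each of 99 gene lists (all members of lists up to 12), and S100a8, S100a9, Tlr4, Ly96, Ager and Bsg. Clone names (6) and genes with disagreeing probe sets (2, Bdkrb2 and Birc3) were passed over, and some list members were named after their values were seen. The comparison, its genes and the lists were chosen with earlier results of these data known. Not every gene or list that the rule takes is reported here. Where a gene had several RefSeq promoters, the first was used.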

Additional observations from a re-analysis of the deposited data

Results flagged for a closer look

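Pltp, the phospholipid transfer protein gene, had signals of 303, 176 and 151 on the S100a8, control and S100a9 arrays. Its log2 ratio over the same control array was 0.79 with S100a8 and −0.21 with S100a9, so the signs are opposite. The difference was not tested, and 1 probe set carries it.

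Probe sets without a single gene symbol, which the gene comparison does not use, held large ratios too. Of 3017 above the floor, 62 were lower by 2-fold or more with S100a8 and 5 were higher by as much. Among the 11138 compared genes the counts were 32 (0.287%) and 5 (0.0449%), so the lower share was larger among these probe sets. The lowest of the 3017 had signals of 70.3, 286 and 89.9 in the same order and the highest 471, 40.9 and 116. One array of each pair is at the floor, so their log2 ratios of −1.91 and 2.63 are bounds on the size. The RNAs they read are not named here.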

How the results depend on the processing

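The count of genes at least 2-fold lower (32) lay between 23 and 42 under the 9 alternatives that kept the 2-fold size, and that of genes at least 2-fold higher (5) between 3 and 6, the 3 with the floor at the 65th percentile. At 1.5-fold the counts were 213 and 126. CC chemokine medians were 0.26 with the floor at the 30th percentile, −1.06 at the 65th, 0.00 with no filter on dim genes and −0.025 with the mean of all probe sets. CXC medians were −0.24 at the 30th percentile and 0.00 with no filter, and those of metalloproteinases and their inhibitors 0.21 at the 30th, 0.013 at the 65th and 0.00 with no filter. With the mean of all probe sets NF-kB subunits and IkB proteins were at −0.75 and antiviral effectors at −0.27. Of 890 list medians under alternatives, 54 in 32 lists had the other sign. Among lists whose median was at least the probe set SD over the square root of their gene number from 0, these were, besides CC chemokines, prostaglandin (−0.11), integrin (−0.018) and non-Hox homeobox genes (−0.069) at the 65th percentile, retinoid genes (0.02) at the 30th, and the BCL2 family (0.078) with the mean of all probe sets. After centring by brightness they were those of epithelial junction and keratin (−0.017), Hox (−0.078) and non-Hox homeobox genes (−0.036). Of the 82 genes named by their ratio 0 changed sign, and 649 of their values moved by less than the probe set SD and 55 by more. These genes were chosen for large ratios or for probe sets that go the same way, so their kept signs say little about stability. Of 735 further genes taken from the lists, 20 that lay at least that SD from 0 changed sign. With the mean of all probe sets they were Bmf (0.074), Ccl9 (−0.025), Cd82 (0.16), Diablo (−0.038), Hnrnpa2b1 (−0.064), Insr (0.042), Mrps10 (−0.11), Mvk (0.018), Nectin2 (−0.12), Polr2e (0.060), Tra2a (−0.28), Traf6 (−0.031) and Wipi1 (−0.071). With probe sets without an _x_at or _s_at ending first they were Bmf (0.67), Bub3 (−0.20), Dbp (−0.012), Foxo1 (−0.38), Hnrnpf (−0.0053), Mdm4 (0.058), Nfkbib (0.35), Polr2e (0.41), Trim37 (−0.013) and Wipi1 (−0.39). Endothelial markers had no value at the 65th percentile. The causes of these differences were not tested. No paired analysis was possible because each group had 1 array. With 1 array per culture the spread between cultures is unknown, and dim signals limit the low genes with an S100a8 signal near the floor: at the 65th percentile Acod1 was at −0.93 and Mmp10 at −0.84.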

Other observations

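Several further lists held single genes far from control. Taf15, an RNA-binding protein, had signals of 106, 184 and 101 on the S100a8, control and S100a9 arrays (log2 ratio −0.79), with another probe set at −0.20. The noncoding RNA Neat1 had 378, 629 and 471 (−0.74), but its other probe set was at 0.33. Med12, of the Mediator complex, was at −0.62 and Trim14 at −0.75. Ldhb, a lactate dehydrogenase subunit, had 216, 150 and 177 (0.53) in a glycolysis list with a median of 0.03. Zyx, a focal adhesion protein, was at −0.58 and Igfbp5 at 0.64.

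The share of probe sets at least 1.5-fold lower with S100a8 differed with the annotation. It was 1.91% among the brightest probe sets of named genes, 4.56% (377 of 8272) among their further probe sets, 2.66% (15 of 564) among those with several symbols and 11.9% (292 of 2453) among those not in the platform annotation. The shares at least 1.5-fold higher were 1.13%, 1.34%, 3.19% and 1.96%. These differences were not tested. Fn1, picked after its values were seen, had its brightest probe set at −0.14 and the next at −1.28.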
